A study of Mus musculus with 12 samples.

Results

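The regions described here are stretches of H3K27me3 that lie far from protein-coding genes and carry no H3K4me3 in lineage-negative, cKit-positive mouse bone marrow cells, a fraction rich in blood stem and progenitor cells. Peaks of the WT libraries (WT_407 and WT_409) on chromosomes 1 to 19 were merged into intervals. An interval was kept when it held a peak of both WT libraries, was shorter than 10000 bp, overlapped no H3K4me3 peak of either WT library, and lay more than 10000 bp from the span of every RefSeq protein-coding gene. This gave 854 regions of 7286 held by both WT libraries (11.7%). The rule used the WT peaks, so the WT values below describe the choice, and the KO libraries are the data that it did not use. The other regions were 2741 genic ones without H3K4me3 (within the same distance of a gene), 3228 short ones with H3K4me3, and 463 broad ones of 10 kb or more.

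All mice were C57BL/6 and received poly(I:C), which switches on the interferon-inducible Mx1 promoter. The KO group (KO_399 and KO_401) carried Mx1Cre and floxed Ints11 alleles, the control group (WT_407 and WT_409) were WT littermates, and cells were sorted 4 days after the injection. Where 4 values follow each other below, they stand in library order, which is WT_407, WT_409, KO_399, KO_401. Each group had 2 libraries per mark, whose numbers were read as mice. Age and sex are not in the labels, and neither is the share of cells in which Ints11 was deleted. Mx1 responds to interferon in many cell types, so deletion is not limited to the sorted cells.

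H3K27me3 is written by Polycomb repressive complex 2 and bound by Polycomb repressive complex 1, and together they keep genes silent. In mammals the complexes settle best on CpG-rich DNA, most often at promoters of developmental genes, where H3K4me3 can be present too (a bivalent promoter). Far from genes the mark covers promoters of noncoding RNAs and silent regulatory DNA. Ints11 is the catalytic subunit of Integrator, which cleaves nascent RNAs, among them small nuclear RNAs and RNAs made at enhancers.

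Many of these regions lay over noncoding genes of the RefSeq table. Of the 854 regions, 262 (30.7%) overlapped a lncRNA gene and 6 a miRNA gene, while 566 (66.3%) overlapped no annotated gene of any type. Of the bases in the regions, 26.4% lay in lncRNA spans, against 12.1% of all sequence more than 10 kb from protein-coding genes (between the first and the last gene of each chromosome). The miRNA genes were Mir1a-1, Mir124a-2, Mir137, Mir7230, Mir675, Mir125b-1 and the predicted Gm51272. RefSeq (GRCm38.p6) mature sequences of 5 of them held 9 arms with 9 distinct seeds, so no seed was shared. One arm of each of 3 genes is shown, since these genes are well known for roles in neurons (miR-137), growth control from the H19 transcript (miR-675) and blood stem cells (miR-125b). Capitals mark the seed, bases 2 to 8.
mmu-miR-137-3p: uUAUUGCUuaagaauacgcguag
mmu-miR-675-5p: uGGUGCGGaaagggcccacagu
mmu-miR-125b-5p: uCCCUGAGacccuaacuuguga

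RefSeq promoter windows (250 bp before to 50 bp after a transcript start, GRCm38.p6) lay wholly inside a region for 82 genes, all of them lncRNA genes. A window was called CpG-rich when its GC content was above 50% and its ratio of observed to expected CpG above 0.6. By this measure 14 of the 82 genes (17.1%) had a CpG-rich window, beside 13.3% of all 9290 lncRNA genes and 49.6% of all 16430 protein-coding genes in the table. All 14 lay in regions with H3K27me3 in both KO libraries, 14 of 45 such genes (31.1%). No such window was found for the 20 genes in regions of a single KO library or the 18 in regions of neither KO library (a gene with windows in several regions counts in each). The regions of these 3 groups of genes also differed in WT strength (the mean, over both WT lists, of the percentile of −log10 q of the strongest peak), with medians of 70.8, 47.1 and 33.4. The part of strength in the difference was not tested.

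Windows of 4 lncRNA genes with CpG-rich promoters are shown as examples from regions listed in both KO libraries, beside that of Gm41032, the lncRNA gene of the strongest region with any promoter window in neither KO library. CpG dinucleotides are in capitals, and each sequence runs 5′ to 3′ along the transcript. Cistr has been linked to cartilage formation, Miat is a lncRNA of heart and brain, Tunar is a lncRNA of pluripotent and neural cells, and Meg3 is an imprinted, maternally expressed lncRNA. The windows are chr15:102746860-102747159 (minus strand) for Cistr, chr5:112228899-112229198 (minus) for Miat, chr12:105336743-105337042 (plus) for Tunar, chr12:109540746-109541045 (plus) for Meg3 and chr13:98536116-98536415 (minus) for Gm41032. They held 38, 25, 30, 13 and 2 CpG dinucleotides in the same order. By the window of each gene with the most CpG, the 45 genes of both KO libraries had a median of 9 and a highest value of 38. The 18 genes of neither had a median of 5.5 and a highest value of 13, so the windows shown differ more than the groups. The first 4 windows come from the 14 genes with a CpG-rich window, not from all 45 genes in such regions. The ratio of observed to expected CpG of the Meg3 window, 0.602, was just above the limit. A second Tunar window in the same region held 11 CpG dinucleotides and was not CpG-rich (ratio 0.421).
Cistr: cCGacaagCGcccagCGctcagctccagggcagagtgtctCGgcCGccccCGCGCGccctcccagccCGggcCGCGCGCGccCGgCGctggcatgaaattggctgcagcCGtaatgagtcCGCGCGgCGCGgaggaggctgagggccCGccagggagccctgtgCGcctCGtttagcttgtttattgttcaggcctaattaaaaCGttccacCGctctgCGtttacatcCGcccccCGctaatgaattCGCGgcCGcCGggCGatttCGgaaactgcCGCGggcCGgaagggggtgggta
Miat: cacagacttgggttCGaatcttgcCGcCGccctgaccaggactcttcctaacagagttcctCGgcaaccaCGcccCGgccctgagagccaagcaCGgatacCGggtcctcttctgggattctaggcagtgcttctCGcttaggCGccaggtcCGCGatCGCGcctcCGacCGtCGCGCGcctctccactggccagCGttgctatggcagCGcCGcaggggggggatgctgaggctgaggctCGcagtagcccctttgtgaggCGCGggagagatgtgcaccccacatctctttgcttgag
Tunar: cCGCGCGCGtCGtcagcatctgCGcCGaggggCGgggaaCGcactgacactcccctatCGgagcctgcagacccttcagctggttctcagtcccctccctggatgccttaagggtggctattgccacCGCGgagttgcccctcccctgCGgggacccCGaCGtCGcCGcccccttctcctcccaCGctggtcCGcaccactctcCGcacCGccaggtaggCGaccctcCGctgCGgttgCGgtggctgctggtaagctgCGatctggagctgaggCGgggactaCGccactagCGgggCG
Meg3: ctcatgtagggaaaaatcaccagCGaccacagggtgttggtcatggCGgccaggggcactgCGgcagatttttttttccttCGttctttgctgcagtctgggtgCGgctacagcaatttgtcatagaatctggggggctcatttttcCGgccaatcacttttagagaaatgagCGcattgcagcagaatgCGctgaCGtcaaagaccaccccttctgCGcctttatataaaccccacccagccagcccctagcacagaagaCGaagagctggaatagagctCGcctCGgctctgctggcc
Gm41032: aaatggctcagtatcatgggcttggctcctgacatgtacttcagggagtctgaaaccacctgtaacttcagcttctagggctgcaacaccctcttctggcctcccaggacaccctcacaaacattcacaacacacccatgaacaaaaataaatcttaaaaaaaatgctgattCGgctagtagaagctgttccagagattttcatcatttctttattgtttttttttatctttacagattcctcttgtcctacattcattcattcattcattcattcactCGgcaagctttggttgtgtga

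The H3K27me3 lists held 6542 to 11930 peaks (WT both above KO). The most common background at their summits was 3.09, 3.16, 3.30 and 3.67 reads per position in library order. Every listed fold was above 5, so a site without a listed peak may have had a weaker one. H3K4me3 lay within 2 kb of an end of 9 of 10 stem and progenitor genes in every library, Kit, Cd34 and Gata2 among them. It also lay at 4 of 4 mature myeloid genes and 1 of 4 T and NK genes (Cd4, not Cd3e) in every library. Peaks at B cell genes numbered 3 of 4 in WT_409 and KO_399 and 1 of 4 in WT_407 and KO_401. For mature erythroid genes the number was 3 of 3 in WT_409 and 1 of 3 elsewhere, and for stromal and endothelial genes 3, 2, 5 and 4 of 5 in library order. Their part in the results below was not tested.

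In WT, the intergenic regions were short and weak. Their median width was 2539 bp (range 522 to 9752 bp), against 2985 bp for genic regions without H3K4me3 and 3942 bp for short regions with H3K4me3. The strongest summit of a region had a median of 31 reads in WT_407 and 27 in WT_409. At the most common background the fold limit of 5 needed 19.5 and 19.8 reads, and more where the local background was higher. The genic regions had 35 and 32 reads, and the short regions with H3K4me3 had 47 and 53. The median WT strength was the 43.9th percentile, against 54.4 for genic regions, 73.6 for short regions with H3K4me3 and 93.2 for broad regions. In 681 of the 854 regions each WT library had a single peak.

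The comparison of KO with WT asked how much of this intergenic H3K27me3 was listed after deletion of Ints11. Each region had on average 2744, 2381, 641 and 1295 covered bp in library order. Both KO libraries lay below both WT libraries, and KO_399 was the lowest. WT averaged 2562 ± 257 bp against 968 ± 462 bp for KO (SD, n = 2 per genotype), so KO stood at 37.8% of WT, with the smallest p that 2 against 2 libraries allow (two-sided exact permutation test, p = 0.33). Over all 7286 regions, chosen by the same WT peaks, WT averaged 4160 ± 108 bp against 2576 ± 715 bp for KO (SD, n = 2 per genotype), a KO share of 61.9%. Genic regions without H3K4me3 stood at 51.4%, short regions with H3K4me3 at 63.6% and broad regions at 78.2%. WT peaks chose the regions of every class, and the part of this choice in the KO share was not tested. The whole H3K27me3 lists covered 34.5, 31.5, 15.2 and 23.1 Mb in library order. The part of this difference between whole libraries in the KO share was not tested. In bulk chromatin, fewer cells with the mark and less of it per cell cannot be told apart.

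**Figure D1:**
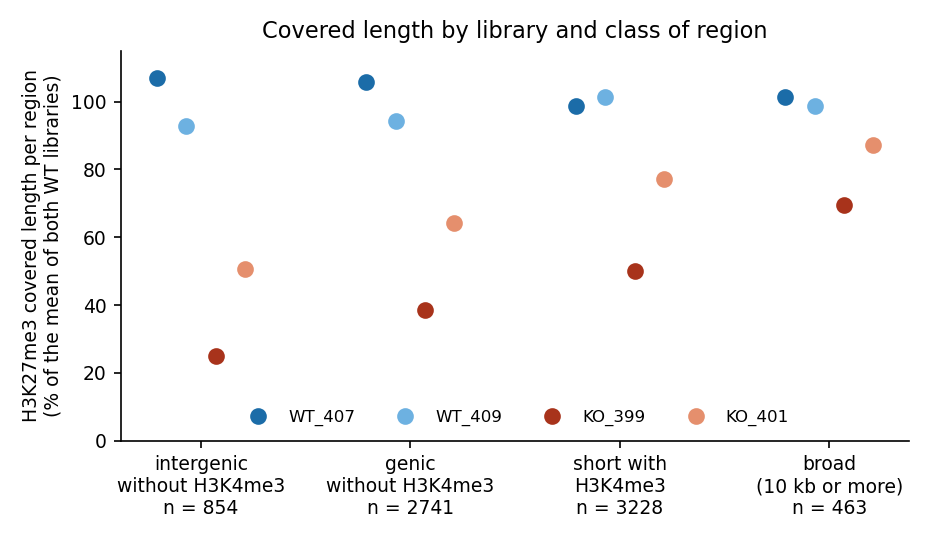
H3K27me3 covered length per region in each library (points), as a percent of the mean of both WT libraries, for the 4 classes of regions held by both WT libraries. Both KO libraries lie below both WT libraries in every class, and the intergenic class stands lowest at 37.8% of WT on average.

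The genic regions without H3K4me3 were the class most like the intergenic one in width and strength, and both were set side by side as a ratio within each library. The covered length of the intergenic regions was 26.5%, 25.8%, 17.0% and 20.7% of that of the genic regions, in library order. The averages were 26.2 ± 0.488% for WT and 18.8 ± 2.61% for KO (SD, n = 2 per genotype), a difference of -7.36 percentage points that exceeded the spread between libraries (two-sided exact permutation test, p = 0.33, the smallest possible). The sign was the same in every alternative, but the size was -3.16 with regions more than 10 kb from every RefSeq gene, -4.46 with a distance of 20 kb, -4.53 with equal numbers of peaks, and -4.85 with a fold of at least 7. The size thus moved with the distance rule as well as with the fold limit and the number of peaks. Distance rules also shifted regions between the classes (383 intergenic and 3212 genic with every RefSeq gene, against 854 and 2741). Sizes in percentage points are therefore not comparable across these settings. The intergenic regions were also the weaker class in WT (median strength 43.9 against 54.4), and the part of strength in the ratio was not tested.

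By presence, 268 of the 854 regions (31.4%) had H3K27me3 in both KO libraries, 205 (24.0%) in KO_401 alone, 23 (2.69%) in KO_399 alone and 358 (41.9%) in neither. Over all regions 20.1% were in neither KO library and 60.1% in both. For genic regions without H3K4me3 the shares were 29.1% and 48.3%, for short regions with H3K4me3 9.67% and 71.9%, and for broad regions 0% and 99.8%. At 761 intergenic regions (89.1%, against 84.4% of all regions) each KO library covered fewer bases than either WT library. At 0 regions (0% of all) each covered more. Bases were counted only inside intervals set by the WT peaks, so KO could not exceed a WT library that filled its interval. The 0 is therefore no measure of gain in KO. Without KO_401, 563 regions (65.9%) had no KO peak, against 38.5% of all regions. Without WT_407 the rule chose 1304 regions, 702 of them (53.8%, against 33.5% of all regions) in neither KO library, and without WT_409 it chose 2079, 1448 of them (69.6%, against 44.0%). With lists cut to equal numbers of peaks, 79 of 434 regions (18.2%) were in neither KO library, against 9.57% of genic and 6.67% of all regions.

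**Figure D2:**
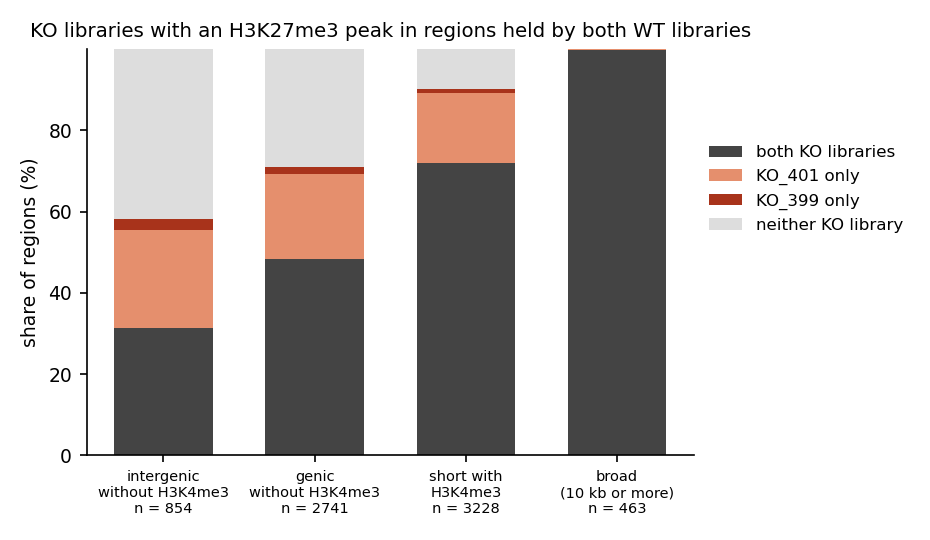
Share of regions (y axis, percent) with an H3K27me3 peak in both KO libraries, 1 of them or neither, for the 4 classes. Of the intergenic regions 41.9% were in neither KO library, against 29.1%, 9.67% and 0% of the other classes.

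WT strength ordered which intergenic regions had a KO peak. Of 157 regions below the 25th percentile of strength, 140 (89.2%) were in neither KO library. The share was 55.6% from 25 to 50, 7.01% from 50 to 75 and 0% of the 68 regions at 75 or more, all of which were in both KO libraries. Genic regions of the same strength had 87.1%, 51.1%, 4.69% and 0.176% in neither. Within the strongest bin the covered length in KO was 71.2% of WT for intergenic and 71.7% for genic regions, and from 50 to 75 it was 48.3% and 55.1%. These shares are descriptions, with no test of the differences between classes within a bin.

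**Figure D3:**
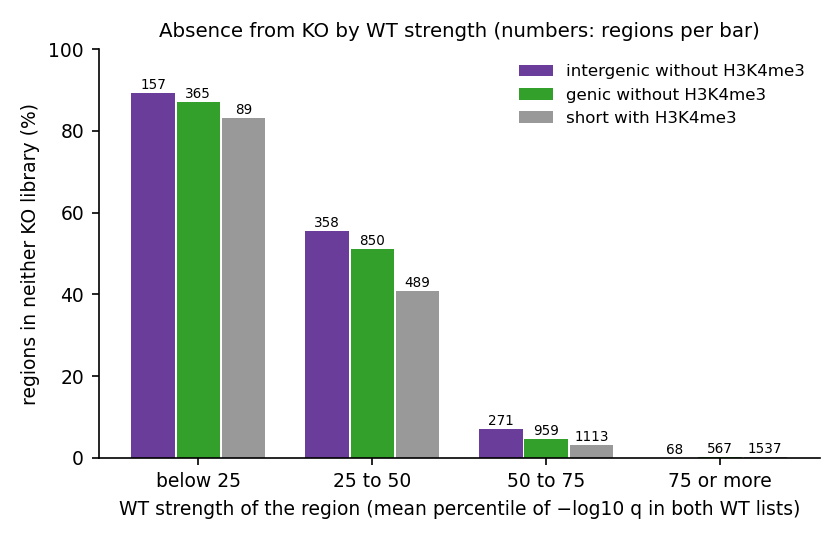
Share of regions in neither KO library (y axis, percent) by WT strength (x axis) for 3 classes, with the number of regions above each bar. The share falls from 89.2% to 0% of intergenic regions as WT strength rises.

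Width followed the same order, at 84.6% in neither KO library below 1 kb, 69.2% from 1 to 2 kb, 36.6% from 2 to 4 kb and 7.54% from 4 to 10 kb. Genic regions had 86.2%, 63.1%, 24.2% and 3.28%. Summit reads gave the same picture. Regions in both KO libraries had median summits of 43.5 reads in WT_407 and 41 in WT_409. Regions in neither had 25 and 23 reads, close to the 19.5 and 19.8 that the fold limit needed at the most common background. At the most common background of the KO lists, where absence was called, the limit needed 20.5 reads in KO_399 and 22.4 in KO_401. Sites with a higher local background needed more. In the regions of both KO libraries the KO summits had medians of 26 reads in KO_399 and 36.5 in KO_401, below the WT medians. Reads were not scaled for depth, and the rule had chosen the WT peaks. The part of either in this difference was not tested.

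**Figure D4:**
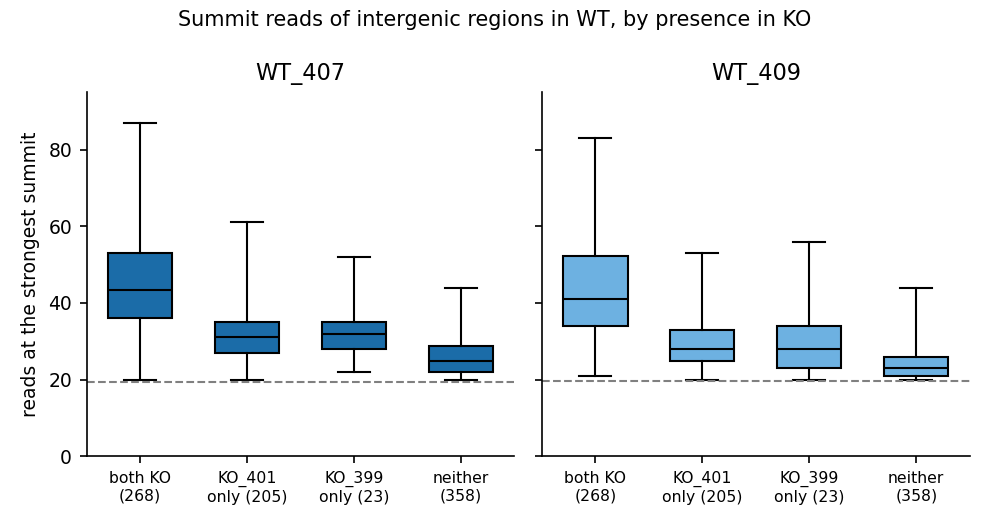
Reads at the strongest summit of each intergenic region in WT_407 and WT_409 (y axis), by the KO libraries that held the region (number of regions in brackets). Boxes span the quartiles with the median, and whiskers the full range. The dashed line is the number of reads needed for a fold of 5 at the most common background of the library. Regions in neither KO library lie near that line, with medians of 25 and 23 reads.

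Shares by distance from genes or domains spanned 33.6% to 45.7%, a narrower range than by strength. The distance to the nearest protein-coding gene had a median of 33251 bp and reached 1391827 bp. The share in neither KO library was 45.3% for regions within 20 kb of a gene, 41.7% from 20 to 50 kb, 44.0% from 50 to 100 kb and 33.6% beyond 100 kb. Of the intergenic regions 214 (25.1%) lay within 50 kb of a broad domain, against 14.6% of genic regions. Within 1 kb the order was the other way, with 24 intergenic regions (2.81%) against 3.65% of genic regions. Those 24 cannot be told apart from pieces of a domain that the peak caller split. The share in neither KO library was 45.7% within 25 kb of a broad domain, 38.3% from 25 to 100 kb and 41.9% beyond. The nearest WT H3K4me3 peak was a median of 36306 bp away.

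Regions came in groups along the chromosome. With a gap of at most 50 kb, 440 of the 854 regions fell into 141 groups of 2 or more, and 20 groups held 5 or more. Chromosome 11 had 1.46 regions per Mb of sequence more than 10 kb from genes, chromosome 5 had 1.36, and chromosome 1 had 0.146. The largest group held 13 regions around Uncx, a homeobox factor of the axial skeleton (chr5:139505414-139684204). Their summed lengths were 48009, 42172, 10723 and 21689 bp, with 4 regions in both KO libraries and 6 in neither.

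Both sides of the Hoxc cluster, which specifies position along the body axis, held groups. The 11 regions on the Smug1 side (chr15:103047330-103142186) covered 48388, 41239, 6916 and 12060 bp in library order. The 10 regions on the Calcoco1 side (chr15:102684694-102787224) covered 27083, 21470, 6299 and 10443 bp. In KO_399 all 6299 bp there came from the region of Cistr. Another 9 regions around Lbx1 and Tlx1, homeobox factors of muscle precursors and of the spleen, had 17072, 16156, 4391 and 5210 bp, and 7 of them were in neither KO library. The 8 regions of a group between Pax2, a factor of kidney and eye, and Hif1an (chr19:44638221-44700336) lay at least 46264 bp from either gene and had 33021, 28301, 13671 and 14218 bp. In each of these groups both KO libraries had less than both WT libraries.

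Groups also lay far from any broad domain. The 9 regions beside Septin9, a cytoskeletal GTPase gene, were 845783 bp from the nearest one and covered 32668, 30782, 7241 and 18747 bp in library order. The 9 regions beside Lrig1, a regulator of growth factor receptors that marks epithelial stem cells, lay within 34329 bp of each other and 4906261 bp from a broad domain. They covered 27757, 27467, 2981 and 15850 bp. KO_399 had the least of the Lrig1 group, and both KO libraries lay below both WT libraries.

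Developmental transcription factors were the nearest genes of 129 regions (15.1%), which belonged to 60 of the 204 listed factors. The list makes up 0.987% of protein-coding genes. It was nearest to 5.92% of all 7286 regions, 4.60% of genic regions, 0.898% of short regions with H3K4me3 and 31.7% of broad regions. The share of intergenic sequence nearest to these factors was not computed. Of the 129 regions, 46 (35.7%) were in both KO libraries and 52 (40.3%) in neither, near the 31.4% and 41.9% of all 854 regions. Besides Uncx with 8 regions, Pou3f1 (a POU factor of glia and neurons) was nearest to 7, and Hoxc4, Lhx1 and Tbx3 to 5 each. The 5 regions of Tbx3, a limb and mammary T-box factor, had 11959, 9444, 1034 and 5587 bp in library order. Those of Lhx1, a kidney and head organizer factor, had 15292, 11862, 3684 and 7297 bp.

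Hematopoietic regulators were nearest to 9 regions (1.05%, against 0.837% of all 7286 regions), from 7 of the 53 listed genes. Of these regions 6 (66.7%) were in both KO libraries and 1 in neither, against 31.4% and 41.9% of the 854 regions and 60.1% and 20.1% of all 7286. Lef1 and Tcf3, transcription factors of lymphoid development, had 2 regions each, all 4 in both KO libraries. The region 137644 bp from Irf8, a monocyte and dendritic cell factor, had 2776, 2209, 1499 and 2002 bp in library order. The region 25735 bp from Hlf, a factor of stem cell quiescence, had 3661, 3253, 1563 and 3389 bp, so that KO_401 lay between the WT libraries. A region 40605 bp from Gata2, which stem cells need, had 1036, 2247, 0 and 887 bp.

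Signalling ligands were nearest to 11 regions (1.29%, against 1.58% of all 7286 regions). Of these 11, 2 (18.2%) were in both KO libraries and 4 (36.4%) in neither, beside 31.4% and 41.9% of the 854 regions. The 3 regions of Bmp7, a bone morphogenetic protein, covered 14459, 5379, 1759 and 7804 bp in library order. The WT libraries differed there, and the groups overlapped. The region beside Nodal, a ligand of the early embryo, had 1250, 1207, 0 and 0 bp. Neuronal adhesion, channel and receptor genes were nearest to 5 regions (0.585%, against 3.90% of genic regions), and the large families of chemoreceptors to 2.

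Noncoding RNA genes were a second way to name the regions. Of the 262 regions over a lncRNA gene, 97 (37.0%) were in neither KO library and 99 (37.8%) in both. For the 592 others the shares were 44.1% and 28.5%. Where an end of the lncRNA gene lay inside the region (125 regions), 26.4% were in neither and 48.0% in both. These groups were not matched for width or WT strength, whose part in the differences was not tested. The 8 lncRNA genes of the strongest regions were Gm33293, Miat, Gm36560, Cistr, Carlr, 9530059O14Rik, A930011G23Rik and Gm26644. The strongest region of each was in both KO libraries, while Gm36560 and 9530059O14Rik also overlapped weaker regions in neither. The region of Gm33293, the strongest of all, had 8577, 7875, 5850 and 7003 bp in library order. Miat had 5802, 5416, 3457 and 4847 bp. Cistr, which overlaps the same region as Gm36560, had nearly level covered lengths of 6739, 6900, 6299 and 6657 bp. Both KO libraries lay just below the WT libraries. That region is 6900 bp wide, which caps the covered length, and its summits had 65, 77, 39 and 57 reads in library order. Carlr, a lncRNA of inflammatory signalling, had 5889, 5675, 3529 and 5748 bp, so that KO_401 lay between the WT libraries. Its summits had 76, 81, 52 and 64 reads, with both KO libraries below both WT libraries. The region of 9530059O14Rik had 7186, 8208, 6336 and 6775 bp, that of A930011G23Rik had 3953, 3970, 2877 and 2936 bp, and the strongest of 3 over Gm26644 had 8414, 7263, 4862 and 5881 bp.

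The miRNA genes and the other RNA genes named next were chosen after their values were seen. Mir1a-1 lay in a region with 5934, 5079, 3506 and 3775 bp in library order. Mir124a-2, a miRNA of neurons, had 6305, 6533, 3950 and 5817 bp. Mir125b-1, inside the host lncRNA Mir100hg, had 4525, 4800, 424 and 2981 bp. Mir7230 had 8405, 6728, 3706 and 4598 bp. Mir137 had 1586, 1598, 0 and 1008 bp, and the region over H19 and its miRNA Mir675 had 2465, 2786, 0 and 1156 bp. KO_399 had no listed peak at either. At each of these miRNA genes both KO libraries were below both WT libraries. The same held at 89.1% of the 854 regions and 84.4% of all 7286. Among imprinted RNAs, Meg3 had a short stretch in KO, with 2383, 2332, 404 and 1390 bp. Rmst, a neural lncRNA, was in one of the 23 regions of KO_399 alone, with 1396, 982, 367 and 0 bp.

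**Figure D5:**
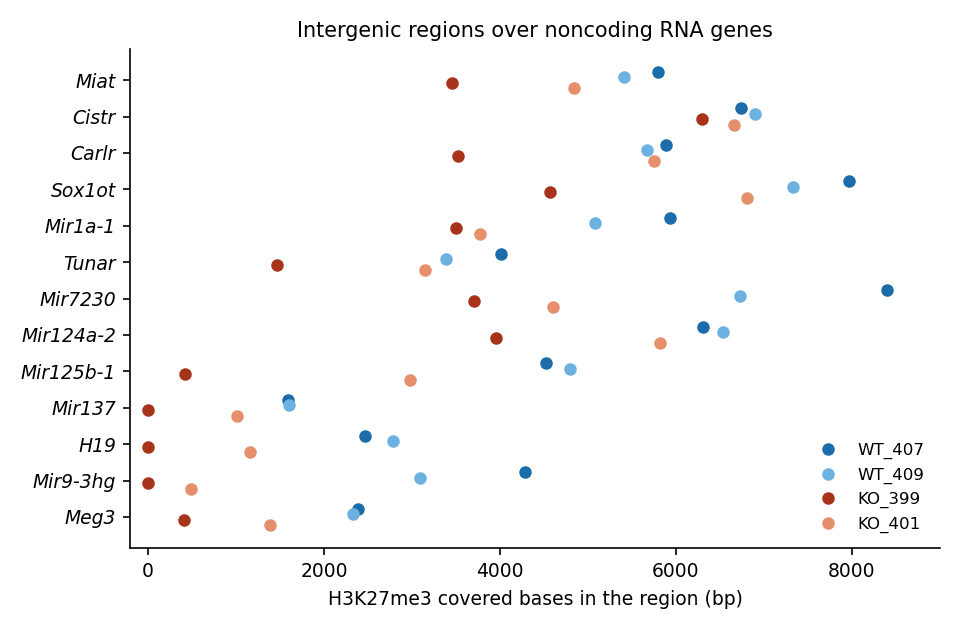
H3K27me3 covered bases (x axis, bp) in each library (points) for the intergenic regions over 13 noncoding RNA genes. Cistr has nearly equal covered bases in all libraries, a measure capped by the width of the region, whereas Mir137, H19 and Mir9-3hg are at 0 in KO_399.

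The strongest region of all, over Gm33293, lay 24795 bp from Tmem33 (chr5:67227126-67235769). Its summits had 87, 81, 40 and 66 reads in library order. Its neighbour, 33477 bp from Tmem33 and one of the widest (chr5:67217602-67227087), had 9486, 9302, 8254 and 9311 bp. The neighbour ends just before the strongest region starts, and another region (chr5:67213122-67217408) ends just before the neighbour. These regions cannot be told apart from pieces of a single wider stretch that the peak caller split. The 8 strongest regions, among them those beside Hoxa13 and Evx1 at the end of the Hoxa cluster, Abcc4, Scrt2 and Ap3b1, were in both KO libraries. The region beside Hoxa13 (chr6:52272326-52279230) had 6882, 6285, 4724 and 5463 bp.

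The strongest region in neither KO library ranked 187th in WT strength. It lay 12158 bp from Fbxl18, an F-box protein gene (chr5:142857063-142859630), and covered 2083 and 2568 bp in the WT libraries with 38 summit reads in each. The next ones lay nearest to Ankrd46, Lrrc8b, Adgrl1, Bloc1s5 and Brip1, with 1065 bp (WT_409, Bloc1s5) to 4406 bp (WT_409, Lrrc8b) in WT and summits of 33 to 44 reads. By the difference in bp, a measure that favours short regions, the KO values nearest to WT were near Lmx1b (772, 780, 717 and 813 bp in library order), Prdm2 (1753, 1612, 1574 and 1687 bp), Fbxo8 (1566, 1798, 1564 and 1684 bp) and Id4 (1060, 915, 788 and 910 bp). WT and KO values overlapped at the first 3. The region farthest from a gene, 1391827 bp from Tenm3, had 2751, 2786, 0 and 1152 bp.

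H3K4me3 in KO was rare in these regions. The rule left out WT H3K4me3, so only KO could show any. A KO H3K4me3 peak overlapped 22 of 854 regions (2.58%), against 7.94% of all 3766 regions without WT H3K4me3 and 8.94% of the genic ones. Of the 22, 20 had it in KO_399, the H3K4me3 list with the most peaks (27676, against 25090 in KO_401), 5 in KO_401 and 3 in both. The 3 in both were chosen after their values were seen. Cistr had 823 and 442 bp of H3K4me3 (KO_399, then KO_401), a region 665516 bp from Mctp2 had 656 and 195 bp, and a region 50929 bp from Eef2kmt had 353 and 217 bp. H3K27me3 was listed in both KO libraries at Cistr, in KO_401 alone near Mctp2 and in neither near Eef2kmt.

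The rule was also run with KO lists in place of WT lists. It gave 339 intergenic regions of 4884 held by both KO libraries (6.94%), against 854 of 7286 (11.7%) from WT. Of the 339, 335 (98.8%) were held by both WT libraries, 3 by a single one and 1 by neither. Over all 4884 regions 4862 (99.5%) were held by both WT libraries, so the intergenic share was near that of all. They overlapped the WT-chosen regions at 261 of 339 (77.0%) and 253 of 854 (29.6%). From KO_401 alone the rule gave 756 regions and from KO_399 alone 534, more than the 339 that both libraries gave together.

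The limits of the rule cut through a range of regions. The 3 widest regions were 9752, 9569 and 9486 bp wide, near Cacna2d2, Zfp322a and Tmem33. The next intervals of the same kind, left out by the width limit, were 10038, 10582 and 10779 bp wide, and all 6 were in both KO libraries. Just inside the distance limit lay regions 10125, 10130 and 10140 bp from Polr3b, Bcas1 and Nr2f2. Just outside it lay those 9957, 9937 and 9925 bp from Ntsr1, Gata3 and Twist1.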

How the data were processed

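Peak lists of 8 ChIP-seq libraries (4 of H3K27me3, 4 of H3K4me3) were used, and the 4 inputs were not used here. The submitters' processing notes name the build mm10, Bowtie2 and MACS2, among other tools, without versions. Each library had its own list in narrowPeak layout, so peaks were not called on pooled mice. Whether MACS2 was given the inputs as control is not stated in the labels. The deposited score per peak, the deposited ratio (fold over background at the summit) and the deposited −log10 p and −log10 q are the authors' values. Percentiles were taken only within a list. Summit reads derived from fold and −log10 p were set side by side across libraries, with no scaling for depth. No deposited fold was below 5 and peak numbers were skipped, so the lists appear filtered at that fold, a step no label records. Whole reads at H3K27me3 summits were recovered from fold, taken as (reads + 1) / (background + 1), and −log10 p, by a Poisson model, within 0.001 for 100% of summits.

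Covered bases and overlaps (at least 1 bp) were computed with Python 3.11.15, NumPy 2.4.6 and SciPy 1.17.1, tested on simulated peaks. Genes, promoter windows and miRNAs came from RefSeq tables (GRCm38.p6, the same coordinates as mm10). Sequences around summits were planned and not made, since no genome was used here. Libraries were compared by two-sided exact permutation tests, with 6 labelings and no p below 0.33. Where nothing in the labels says that libraries came from separate animals, p-values measure only the spread between libraries. Alternatives were a higher fold limit, a minimum coverage, equal peak numbers, wider merging, other distance rules and leaving out each library. The members, lists and named regions were chosen with earlier results of these data known. The named regions were the 8 strongest, the 6 strongest in neither KO library, the 4 widest, the 4 with the highest KO minus WT difference in bp, the 4 strongest with KO H3K4me3, the 2 farthest from a gene and those at the limits, with their nearest genes, up to 6 genes a list and the 8 strongest noncoding genes. Other noncoding genes in the text and the plot were chosen after their values were seen. Strand-blind peaks cannot tell overlapping genes apart.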

Additional observations from a re-analysis of the deposited data

How the results depend on the processing

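The 10 alternatives were run on 7 results. With only peaks of a fold of at least 7, there were 342 intergenic regions, 131 of them in neither KO library, 301 with fewer bases in both KO libraries and 12 with KO H3K4me3, and the rule on KO lists gave 122. With lists cut to equal numbers of peaks, these were 434, 79, 368 and 11. With every RefSeq gene in the distance rule they were 383, 170, 332 and 8, and 137 from KO lists. Under these settings, in the same order, 38.3%, 18.2% and 44.4% were in neither KO library, against 17.1%, 6.67% and 20.1% of all regions. Fewer bases in both KO libraries held at 88.0%, 84.8% and 86.7%, against 83.3%, 79.4% and 84.4% of all regions. Leaving out 1 library at a time gave 854 to 2079 regions, 381 to 1448 in neither KO library, 763 to 2053 with fewer bases in KO, 22 to 30 with KO H3K4me3, and 339 to 756 from KO lists. It gave a difference in covered length (KO minus WT) of -1921 to -1199 bp, and in the ratio to genic regions of -10.7 to -5.52 percentage points. With fewer libraries or peaks the rule itself chooses other regions. Merging peaks within 1 kb, a distance of 20 kb and a minimum overlap of 50% kept every count within 1.5 times, and no difference between WT and KO changed sign under any of the 10. No paired analysis was possible because WT and KO libraries share no mouse number. The fold limit of 5 hides weaker peaks, and pieces of a domain split by the caller are counted as separate regions.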

Other observations

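Chromosome X was outside the rule. The same steps gave 5 regions there, of which 3 were in neither KO library and none was in both.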
